A study of Mus musculus with 10 samples.

Results

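IGHV1 is the largest mouse heavy-chain V gene family, and its genes lie at the end of the V cluster far from the D and J segments. Here 45 of its genes were followed in B cell receptor transcripts: a sequence was kept when it was productive and its V call named IGHV1 genes alone, with 8 genes of the family (IGHV1-9, IGHV1-26, IGHV1-49, IGHV1-50, IGHV1-62-3, IGHV1-64, IGHV1-72 and IGHV1-80) left out. The 45 genes were among 110 heavy-chain V genes named in the data. They accounted for 135250 of 312827 productive heavy-chain sequences and for 121748 of 282082 clonotypes (43.2%). Clonotypes are counted within a mouse, and each is one distinct pairing of V call and J gene with its junction sequence and its class (IgM, IgD, IgG, IgA or IgE). Of the 45 genes, 43 were named alone, and IGHV1-62-2 and IGHV1-71 were named jointly in 2487 clonotypes because these sequences do not separate them.

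The mice were C57BL/6 wild-type animals with GL261 glioma cells, a mouse glioma line, injected into the brain. One group of 5 received an isotype control IgG. The other group of 5 received an antibody to CTLA-4, a receptor by which T cells are held back. Deep cervical lymph nodes, which drain the brain and meninges, were taken on day 20 from each mouse, and one bulk library was made per mouse, so that the mouse is the replicate. Total deposited counts ran from 382184 to 790139 per mouse, of which productive heavy chains held 159157 to 362445.

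Every B cell builds its heavy chain by joining 1 V, 1 D and 1 J segment, and the V gene supplies the first pair of antigen-contacting loops, CDR1 and CDR2. The junction of the segments forms CDR3. IgM and IgD are carried mainly by naive cells, whereas IgG, IgA and IgE are made after class switching, which is often followed by expansion of clones and by somatic mutation of the V gene. A V gene's use in IgM therefore mainly reflects rearrangement and early selection, and its use in switched classes mainly reflects the clones that expanded.

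The number after the hyphen gives the order of the genes along the locus on chromosome 12, and the order of the 43 single genes by number matched their order in the RefSeq gene table of GRCm38.p6, which also annotates IGHV1-2 (705 clonotypes) and IGHV1-33 (1 clonotype) as pseudogenes. The CDR1 and CDR2 that most IgM sequences of a gene carried are shown for 5 genes, the 3 with the highest means in IgA and the near-identical partners of IGHV1-7 and IGHV1-15. IGHV1-4 and IGHV1-7 are 97.5% identical over their aligned germline bases, have one CDR2 (attaatcctagcagtggttatact) and differ in CDR1 at the 2 bases in capitals.
IGHV1-4 CDR1: ggctacacctttactagctacACg
IGHV1-7 CDR1: ggctacacctttactagctacTGg
IGHV1-15 and IGHV1-23 are 98.2% identical, have one CDR1 (ggctacacatttactgactatgaa) and differ in CDR2 at the base in capitals.
IGHV1-15 CDR2: attgatcctgaaactGgtggtact
IGHV1-23 CDR2: attgatcctgaaactTgtggtact
IGHV1-39, by comparison, differs from IGHV1-7 at 9 bases of CDR1 and 5 of CDR2, again in capitals.
IGHV1-39 CDR1: ggTtacTcAttCactGActacAAC
IGHV1-39 CDR2: attaatcctaAcTAtggtACtact
Among the 41 genes with at least 20 IgM sequences, 28 distinct CDR1 and 33 distinct CDR2 were found, in 38 combinations. One CDR1, ggctacaccttcaccagctactgg, was common to 7 genes (IGHV1-52, IGHV1-53, IGHV1-55, IGHV1-59, IGHV1-61, IGHV1-69 and IGHV1-74). Pairs of genes were 75.8% to 98.6% identical, IGHV1-2 left out, with IGHV1-5 and IGHV1-47 the least alike. IGHV1-52 with IGHV1-61 and IGHV1-20 with IGHV1-37 were the most alike, at the same identity.

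Some rearrangements were found in more than 1 mouse, and this touches the switched classes. Across the 45 pairs of mice, the median number of shared IgG, IgA or IgE rearrangements of these genes was 0, but isotype replicates 3 and 4 shared 41, which is 13.2% of those of replicate 3 and 29.5% of those of replicate 4. Anti-CTLA-4 replicates 3 and 4 shared 33 (10.2% and 17.6%). The 5 pairs sharing most were mice of one group with consecutive replicate numbers. All sharing was within a group: no isotype mouse shared such a rearrangement with an anti-CTLA-4 mouse. In the switched classes the mice of a group are therefore not fully independent, and treatment cannot be told apart from whatever links the libraries of a group. The cause of the sharing was not tested. In isotype replicate 4, 22 of 54 IgG clonotypes and 7 of 12 IgE clonotypes had more counts in another mouse, against 46 of 7260 IgM clonotypes. Results that rest on switched classes are therefore given with such rearrangements left out wherever that changed a call.

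In IgM the most used genes had nearly the same share in every mouse. IGHV1-82, near the far end of the locus, was used most, by 3.78% ± 0.252 of IgM clonotypes (SD, n = 10), with a range of 3.41% to 4.18%. It was followed by IGHV1-15 (2.82% ± 0.148), IGHV1-69 (2.77% ± 0.163), IGHV1-55 (2.57% ± 0.174) and IGHV1-81 (2.53% ± 0.120). The ranges of IGHV1-82 and IGHV1-15 did not overlap, whereas those of the next 4 genes overlapped with their neighbours in this order. IGHV1-53 (2.37% ± 0.100) and IGHV1-5 (2.16% ± 0.187) came next. The spread between mice was small for these genes, with a coefficient of variation of 4.24% for IGHV1-53 and 8.68% for IGHV1-5. It was wider for genes of low use, such as IGHV1-2 (0.141% to 0.360%) and IGHV1-11 (0.043% to 0.163%).

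Neighbouring genes differed widely. IGHV1-83, next to IGHV1-82, was used by 0.018% of IgM clonotypes on average. IGHV1-23, nearly identical to IGHV1-15, was used by 0.029%, and the IGHV1-15 mean was 2.82%. IGHV1-24 was seen in 1 IgM clonotype and IGHV1-33 in none. At the ends of the numbering, IGHV1-2 was used by 0.255% ± 0.059 and IGHV1-85 by 0.920% ± 0.090. Position number and IgM use had a Spearman correlation of 0.255 across 43 genes, which share the 10 libraries and are not independent replicates.

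**Figure D1:**
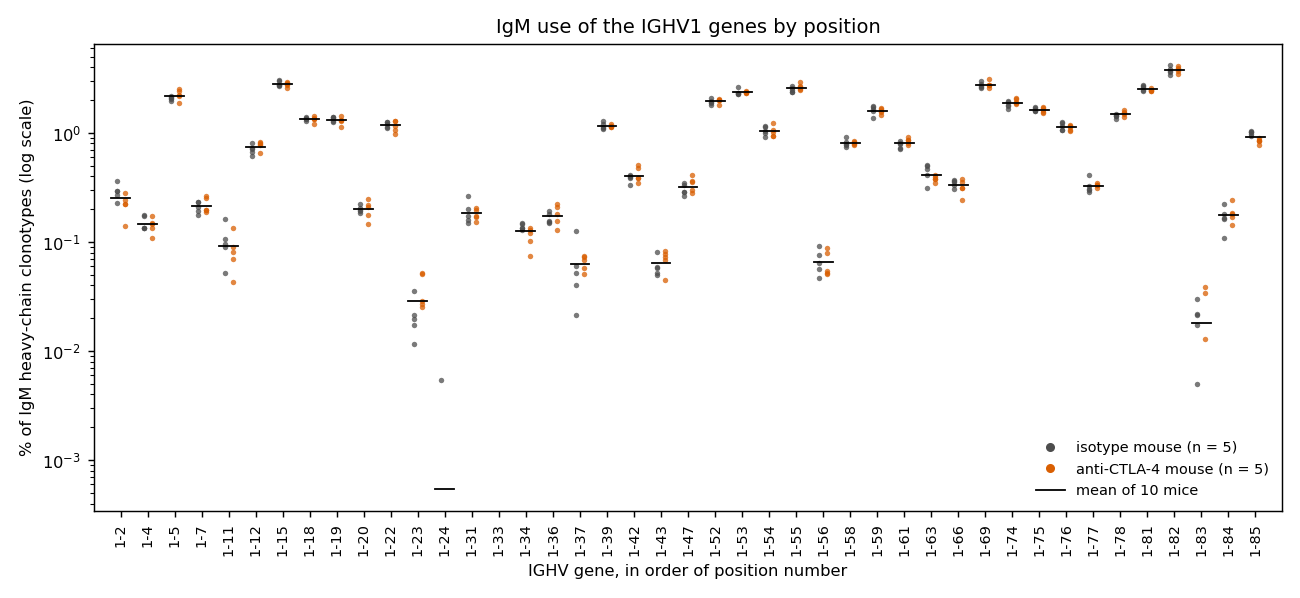
Percent of IgM heavy-chain clonotypes (log scale) for each of the 43 singly named genes in order of position number; each point is a mouse, coloured by treatment, and bars are means of 10 mice (points at 0 are not drawn). IGHV1-82 lies highest at 3.78%, next to IGHV1-83 at 0.018%, and points of both treatments overlap for most genes.

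For grouping by position, clonotypes with a joint call were left out, so shares are of the IgM clonotypes of the 43 singly named genes. The 10 genes numbered 1 to 20 made up 22.3% ± 0.620 of these clonotypes (SD, n = 10 mice), and the 9 genes numbered 21 to 40 made up 6.99% ± 0.264. The 10 numbered 41 to 60 made up 26.9% ± 0.528 and the 14 numbered 61 or more made up 43.8% ± 0.508. The 2 most used genes of each range were IGHV1-15 and IGHV1-5, IGHV1-22 (1.17%) and IGHV1-39 (1.16%), IGHV1-55 and IGHV1-53, and IGHV1-82 and IGHV1-69. Among the 43 genes followed here, those numbered 21 to 40 were thus the least used, at a mean of 0.777% of those clonotypes per gene against 2.23% to 3.13% in the other ranges. The 9 genes averaged include genes with few or no IgM clonotypes, named above. The genes of the family left out at the start were not counted, and their list reaches into this range. The low mean therefore describes the genes followed, and use of this stretch of the locus as a whole was not tested. IgD gave nearly the same shares (23.0%, 6.49%, 27.0% and 43.6%), and use per gene in IgD followed use in IgM with a Spearman correlation of 0.995 over the 43 genes.

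The switched classes varied far more between mice than IgM, and different genes had the highest means in IgG and IgA. IgG held 1631 clonotypes of the 45 genes (44 to 297 per mouse), IgA 713 (18 to 121) and IgE 132 (0 to 44, in 8 of 10 mice). Of the 43 single genes, 42 were seen in IgM, 38 in IgG, 33 in IgA and 23 in IgE. Use per gene followed IgM with a Spearman correlation of 0.922 in IgG and 0.832 in IgA, a description over genes that share their libraries. In IgG the highest means were IGHV1-5 (3.13% ± 4.61 of IgG clonotypes), IGHV1-55 (3.07% ± 2.20) and IGHV1-69 (2.85% ± 2.03). In IgA they were IGHV1-15 (5.96% ± 8.80), IGHV1-39 (5.18% ± 6.07) and IGHV1-7 (3.37% ± 5.64). Standard deviations of this size mean that the order within IgG and within IgA is not resolved.

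No gene was used more in IgG than in IgM beyond the threshold, and 2 were used less. Of the 36 V calls of these genes tested with edgeR's quasi-likelihood test on clonotype numbers with the mouse as a block, 0 were higher in IgG and 2 were lower at an adjusted p (Benjamini-Hochberg over all 81 heavy-chain V calls) under 0.05. Over all V calls tested, 7.41% were called, 2.47% higher and 4.94% lower. DESeq2 also called 2 of the 36, both lower (6.17% of all V calls, 3.7% lower), but not the same 2. It called IGHV1-15 and IGHV1-54 (adjusted p = 0.0436 for IGHV1-54, DESeq2) and not IGHV1-2 (adjusted p = 0.155, DESeq2). Without TMM factors edgeR called 4, all lower (9.88% of all, 7.41% lower). IGHV1-15 made up 0.687%, 0.430%, 0.943%, 0.541% and 3.77% of IgG clonotypes in isotype replicates 1 to 5, and 0.383%, 2.58%, 0%, 2.31% and 0.276% in anti-CTLA-4 replicates 1 to 5. In IgM it lay between 2.57% and 3.04% in all 10 mice, so that 9 of 10 mice were below their own IgM level and 1, isotype replicate 5, was above it. Its log2 fold change was -1.56 (SE 0.509, adjusted p = 0.0386, edgeR). The pseudogene IGHV1-2 was seen in IgG once, in isotype replicate 2, against 536 IgM clonotypes (log2 fold change -3.15, SE 1.04, adjusted p = 0.0386, edgeR).

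The 11 V calls with a positive log2 fold change were led by IGHV1-34 (1.19, SE 0.632, adjusted p = 0.300, edgeR), with 0.262% of IgG and 0.126% of IgM clonotypes. IGHV1-47 and IGHV1-7 followed, and IGHV1-54 had the next smallest p among the lower genes (-1.74, adjusted p = 0.0921, edgeR; 0.274% of IgG against 1.04% of IgM). The median log2 fold change was -0.449 for the 36 V calls and -0.394 for all 81, so the genes as a set lay close to the other heavy-chain V calls. The number of genes called depended on single mice: it was 0 without isotype replicate 1, 1 without isotype replicate 2 or anti-CTLA-4 replicate 3, and 5 without anti-CTLA-4 replicate 1. It was also 1 when rearrangements with more counts in another mouse were left out, where IGHV1-15 had an adjusted p of 0.0514 (edgeR).

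In IgA, IGHV1-7 was used more than in IgM and 10 genes less. These are 11 of 34 V calls tested (edgeR, mouse as a block), and over all 78 V calls tested 34.6% were called, 3.85% higher and 30.8% lower. DESeq2 called 2 higher and 9 lower, against 5.13% and 25.6% of all V calls. IGHV1-7, the near twin of IGHV1-4 shown above, made up 0%, 0.909%, 0.505%, 0.532% and 13.8% of IgA clonotypes in isotype replicates 1 to 5, and 14.3%, 0.510%, 1.90%, 0.806% and 0.472% in anti-CTLA-4 replicates 1 to 5. Its IgM share lay between 0.178% and 0.263%, and 1 mouse of each group stood far above the rest in IgA. In 6 of the 9 mice with IGHV1-7 in IgA it was a single clonotype, and with 110 to 212 IgA clonotypes in these mice a single one already exceeds the IgM range. Its log2 fold change was 2.02 (SE 0.642, adjusted p = 0.00883, edgeR).

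The 30 IgA clonotypes of IGHV1-7 fell into 12 lineages, a lineage being clonotypes of a mouse with the same V and J gene, the same junction length and at least 90% junction identity. In isotype replicate 5 there were 16 clonotypes in 2 lineages, and they held 8.98% of that mouse's IgA counts. In anti-CTLA-4 replicate 1, whose library had 35 IgA clonotypes, there were 5 clonotypes in 2 lineages. The junction of the most counted IGHV1-7 lineage in IgA is shown for each of these 2 mice, with the bases outside the V and J segments in capitals.
Isotype replicate 5: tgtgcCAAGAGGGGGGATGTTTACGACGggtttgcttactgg
Anti-CTLA-4 replicate 1: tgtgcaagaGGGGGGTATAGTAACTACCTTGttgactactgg
They differ in J gene (IGHJ3 and IGHJ2) and in the added bases, so the higher share in these 2 mice comes from separate rearrangements. The log2 fold change was 2.09 with lineages in place of clonotypes (adjusted p = 0.000593, edgeR). It was 1.63 without anti-CTLA-4 replicate 1 (adjusted p = 0.0563, edgeR) and 0.35 with deposited counts (adjusted p = 0.925, edgeR).

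IGHV1-39 had the next largest positive value, 1.10 (SE 0.570, adjusted p = 0.120, edgeR). It was called by DESeq2 (1.12, adjusted p = 0.0442, DESeq2) and with lineages in place of clonotypes (1.11, adjusted p = 0.00514, edgeR). A count of at least 2 also gave a call (1.66, adjusted p = 0.0125, edgeR). No fit that left out a mouse called IGHV1-39 (adjusted p of 0.0660 to 0.358, edgeR). It made up 7.78%, 3.64%, 1.52%, 1.06% and 2.59% of IgA clonotypes in isotype replicates 1 to 5, and 0%, 5.10%, 2.53%, 20.97% and 6.60% in anti-CTLA-4 replicates 1 to 5, against 1.08% to 1.28% in IgM. Its share was higher in IgA than the highest IgM share in 8 of 10 mice. The 80 IgA clonotypes belonged to 32 lineages, the most of any of these genes in IgA. IGHV1-4, the near twin of IGHV1-7, was found in IgA in 2 mice, with 1.72% in isotype replicate 5 and 3.30% in anti-CTLA-4 replicate 5 (0.47, adjusted p = 0.623, edgeR). The difference between the twins was not tested.

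The 10 genes used less in IgA were IGHV1-2, IGHV1-5, IGHV1-19, IGHV1-22, IGHV1-52, IGHV1-54, IGHV1-59, IGHV1-61, IGHV1-69 and IGHV1-82. IGHV1-69, the third most used gene in IgM, was found in IgA in 3 of 10 mice: 0.532% in isotype replicate 4, 5.71% in anti-CTLA-4 replicate 1 and 2.36% in anti-CTLA-4 replicate 5 (-3.39, SE 0.745, adjusted p = 0.000165, edgeR). IGHV1-19 was found in 2 mice, at 1.06% and 1.42% (-3.02, SE 0.834, adjusted p = 0.00300, edgeR). IGHV1-2 had no clonotype among 1517 in IgA, against 0.260% of all IgM clonotypes pooled. Were clonotypes independent draws, this would allow up to 0.198%, at least 1.32-fold lower. Clonotypes of a lineage are not independent, so the bound is looser than that and a lower use is not secured by it. DESeq2 did not call IGHV1-2 in IgA (-1.56, adjusted p = 0.163, DESeq2). The smallest called change was that of IGHV1-82, from 3.78% of IgM to 2.53% ± 2.39 of IgA (-1.52, SE 0.552, adjusted p = 0.0218, edgeR). This call was lost without isotype replicate 5 (adjusted p = 0.0610, edgeR). IGHV1-22 (-1.89, adjusted p = 0.0314, edgeR) was no longer called in 7 of the 10 fits that left out a mouse, namely isotype replicates 2, 3, 4 and 5 and anti-CTLA-4 replicates 1, 4 and 5 (adjusted p of 0.0518 to 0.0812, edgeR).

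The scaling of the IgA libraries decided several of these calls. The median log2 fold change was -1.15 for the 34 V calls and -1.13 for all 78 (-1.14 and -0.963 with undetected genes at their bound). TMM factors, which assume that most V calls do not differ, moved the median V call by -0.625 in this comparison and by 0.180 in IgG against IgM. Without them 2 genes were higher in IgA, IGHV1-7 (2.66, adjusted p = 0.00193, edgeR) and IGHV1-39 (1.74, adjusted p = 0.0131, edgeR), and 3 were lower, IGHV1-69 (-2.73), IGHV1-19 (-2.41) and IGHV1-2, which had no IgA clonotype. Over all V calls the split was then 5 higher (6.41%) to 12 lower (15.4%), against 3 to 24 with TMM factors.

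**Figure D2:**
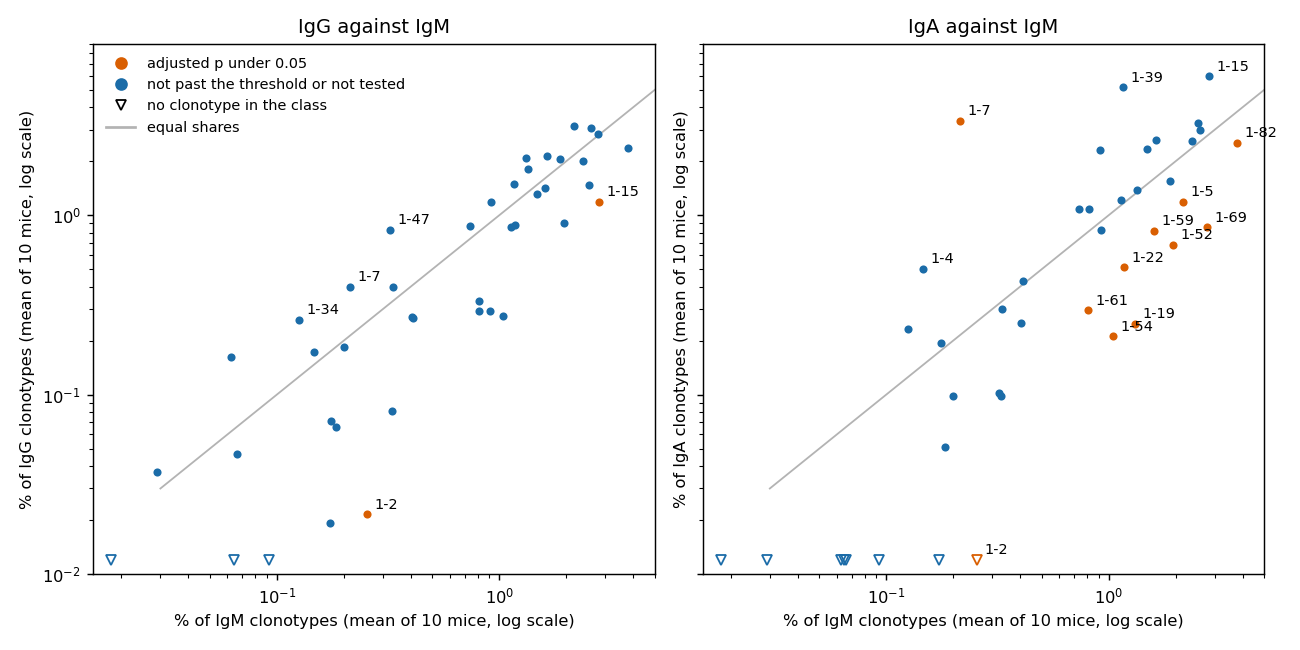
Mean percent of IgG (left) and IgA (right) clonotypes against mean percent of IgM clonotypes over 10 mice, both on log scales; each point is a V gene or the joint call, orange where the adjusted p was under 0.05, triangles at the bottom have no clonotype in the class, and the line marks equal shares. In IgA, IGHV1-7 lies above the line at 3.37% against 0.214%, and the 10 lower genes lie below it.

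No difference in position between the classes passed the test. The share of the 4 position ranges in IgG was 25.6% ± 7.94, 8.38% ± 6.20, 25.6% ± 9.98 and 40.4% ± 10.5 of the clonotypes of the singly named genes. In IgA it was 28.5% ± 19.7, 13.8% ± 12.7, 20.3% ± 11.5 and 37.3% ± 16.0 (SD, n = 10). Joint calls have no single position and were left out of these shares and of the mean position. The joint call IGHV1-62-2 or IGHV1-71, both numbered 61 or more, made up 0% to 10.9% of IgA clonotypes per mouse, highest in isotype replicate 2. The mean position was 52.9 ± 0.413 in IgM, 50.4 ± 4.80 in IgG and 48.3 ± 10.8 in IgA. None of these 10 comparisons with IgM, nor the 2 of the total share below, passed the exact sign-flip permutation test over mice (two-sided, adjusted over the 12; lowest adjusted p = 0.360).

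As a whole, the 45 genes made up 42.5% ± 0.441 of IgM, 37.7% ± 8.59 of IgG and 47.3% ± 8.199 of IgA clonotypes (SD, n = 10). The IgG share was below the IgM share in 8 of 10 mice (exact sign-flip permutation p = 0.0996, adjusted p = 0.360). With lineages in place of clonotypes the difference was -4.32 percentage points (exact adjusted p = 0.0469).

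The effect of the CTLA-4 antibody was compared next, by tests that take mice as independent. Switched rearrangements were shared only within a group, so this does not strictly hold in IgG, IgA and IgE. In IgG the 45 genes made up 36.8%, 28.2%, 36.8%, 29.2% and 27.7% of clonotypes in isotype replicates 1 to 5, and 54.0%, 36.4%, 37.8%, 48.1% and 42.5% in anti-CTLA-4 replicates 1 to 5. The anti-CTLA-4 mice were thus mostly higher, with 1 of them, replicate 2, just below the highest isotype mice. The means were 43.8% ± 7.33 and 31.7% ± 4.65 (SD, n = 5 each), and the difference of 12.05 percentage points had an exact permutation p of 0.0238, which became 0.143 after adjustment over 6 comparisons of share and position. With lineages in place of clonotypes the difference was 2.30 points. Of the 10 fits that left out a mouse, only that without anti-CTLA-4 replicate 2 passed (13.9 points, exact adjusted p = 0.0476), and the highest exact adjusted p was 0.333. In IgA the means were 51.9% ± 8.36 and 42.7% ± 5.28 (exact p = 0.0794, adjusted p = 0.238). In IgM they were 42.6% ± 0.601 and 42.4% ± 0.219 (exact p = 0.492, adjusted p = 0.738). The mean position was 51.2 ± 5.30 and 49.7 ± 4.71 in IgG (exact adjusted p = 0.754) and 45.1 ± 7.52 and 51.5 ± 13.4 in IgA (exact adjusted p = 0.730), and neither difference passed the test.

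**Figure D3:**
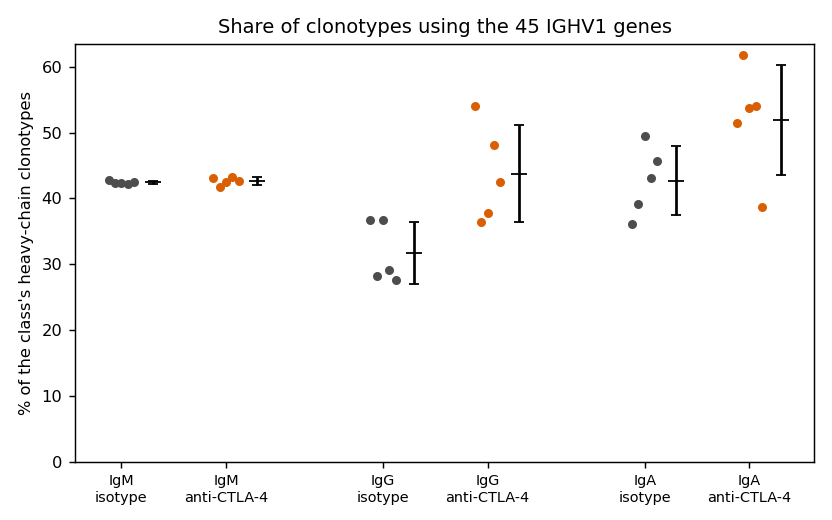
Percent of each class's heavy-chain clonotypes that used the 45 genes; each point is a mouse, and bars show the mean with its SD (n = 5 per group). IgM values lie close to 42.5% in both groups, while IgG values spread from 27.7% to 54.0%.

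No single gene passed the threshold between treatments. Over all classes, 40 V calls of these genes were tested and 0 were called (edgeR; 4 had an unadjusted p under 0.05; DESeq2 called 0, with 2 under 0.05), while 1.04% of the 96 heavy-chain V calls tested were called. The smallest p belonged to IGHV1-85, the gene at the far end of the numbering. Its share of all heavy-chain clonotypes was 1.02%, 1.05%, 0.990%, 1.01% and 1.00% in isotype replicates 1 to 5, and 0.850%, 0.805%, 0.834%, 0.912% and 0.968% in anti-CTLA-4 replicates 1 to 5. The groups did not overlap (log2 fold change -0.20, SE 0.067, adjusted p = 0.135, edgeR). IGHV1-55 (0.13) and IGHV1-12 (0.19) had the smallest p among the higher genes (adjusted p = 0.272 for both, edgeR), and IGHV1-5 followed with 0.14. The median log2 fold change was 0.01 for the 40 V calls and 0.00 for all 96. IGHV1-85 was called without anti-CTLA-4 replicate 5.

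In IgG, 7 V calls were common enough to test, of which IGHV1-55 is a member here (log2 fold change 0.47, adjusted p = 0.695, edgeR). None of the 7 was called (0% of those tested), by edgeR or DESeq2, and none had an unadjusted p under 0.05. The IgG-to-IgM difference was compared between treatments for 36 V calls, and 0 were called (edgeR; 3 with an unadjusted p under 0.05, namely IGHV1-82, IGHV1-66 and IGHV1-12; DESeq2 also called 0, with 3 under 0.05), as were 0% of all 81. In simulated data this test recovered none of the 4-fold changes put in, so the absence of calls says nothing about these genes.

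Switched clonotypes of these genes carried several times more V mismatches than IgM clonotypes. Mismatches between a clonotype's most counted sequence and its germline V gene numbered 0.127 ± 0.012 per 100 nucleotides in IgM, 0.661 ± 0.154 in IgG and 0.871 ± 0.294 in IgA (SD, n = 10). Both switched classes were higher in 10 of 10 mice (two-sided exact sign-flip permutation p = 0.00195, the smallest possible with 10 mice; adjusted p = 0.00488 over 5). In IgE, with 8 mice, the mean was 0.350 ± 0.125. It rests on few clonotypes: 1 each in isotype replicates 1 and 2, 2 in anti-CTLA-4 replicate 1, and at most 44 in a mouse. Sequences without any mismatch made up 80.0% ± 1.10 of IgM, 45.5% ± 5.95 of IgG and 36.7% ± 10.8 of IgA clonotypes. These means and shares count as a mismatch the substitution that nearly every IGHV1-69 clonotype carried, described below.

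**Figure D4:**
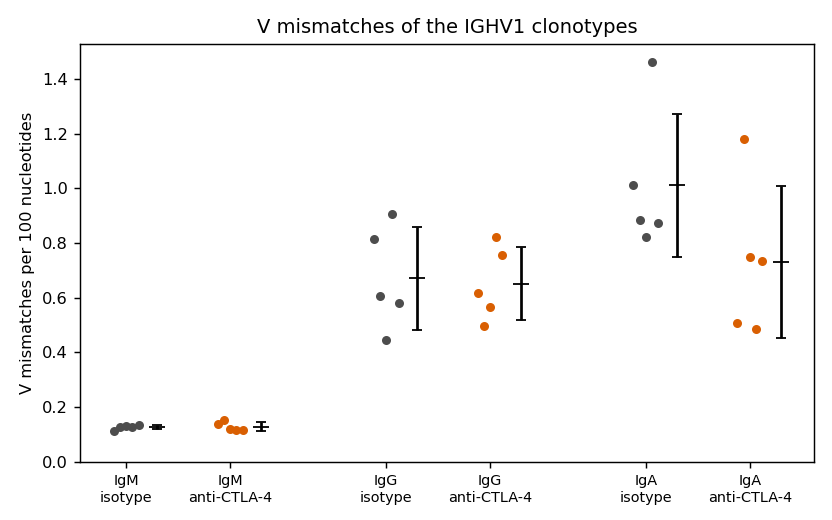
V mismatches per 100 nucleotides of clonotypes using the 45 genes; each point is a mouse, and bars show the mean with its SD (n = 5 per group). IgM values lie near 0.127 in every mouse, below each IgG and IgA value.

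Mismatches did not differ between treatments beyond the spread of mice. In IgG they were 0.651 ± 0.134 with the CTLA-4 antibody and 0.670 ± 0.187 with isotype (exact permutation p = 0.849, adjusted p = 0.881). In IgA they were 0.731 ± 0.279 and 1.01 ± 0.261 (exact p = 0.143, adjusted p = 0.429). Of the 10 fits that left out a mouse, only that without anti-CTLA-4 replicate 2 passed (-0.391, exact adjusted p = 0.0476), and the highest exact adjusted p was 0.833. Against the other heavy-chain V genes, mismatches in IgM were slightly fewer, by 0.0128 per 100 nucleotides (0.127 against 0.140, exact sign-flip adjusted p = 0.0130, lower in 8 of 10 mice). In IgG (0.661 against 0.741, exact adjusted p = 0.566) and IgA (0.871 against 0.794, exact adjusted p = 0.508) the difference was within the spread.

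Some mismatches were shared by nearly every clonotype of a gene. IGHV1-69 carried T279G in 99.9% of 5704 IgM clonotypes (99.8% to 100% per mouse), with positions counted from 1 at the start of the germline V reference of the files, on which the aligned V region begins at 78. A further 3 genes had a part of their IgM clonotypes with a linked set of substitutions: 47 of 137 for IGHV1-56 (26 substitutions), 157 of 2729 for IGHV1-19 (39 substitutions) and 8 of 59 for IGHV1-23 (45 substitutions). The IGHV1-56 and IGHV1-19 sets were found in 10 of 10 mice. With its set put in, the germline of each gene was 90.9%, 86.3% and 84.2% identical to the unchanged germline, and no other germline compared was closer. Those compared were of V genes named alone in at least 20 IgM sequences. The V calls had already placed these sequences with their gene, so this comparison cannot show where the sets come from. With the linked sets left out, the IgM difference from other V genes was -0.0243 (exact adjusted p = 0.00651).

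Among genes with at least 30 IgG clonotypes, mean mismatches ran from 0.157 ± 0.149 per 100 nucleotides for IGHV1-52 (8 mice) to 1.20 ± 2.08 for IGHV1-59 (9 mice), with 1 mouse at 6.43. IGHV1-55, seen in IgG in all 10 mice, had 0.743 ± 0.898, and IGHV1-82 had 0.321 ± 0.305 (9 mice). In IgA, IGHV1-53 (0.814 ± 0.920) and IGHV1-15 (0.790 ± 1.00) were highest among genes with at least 30 clonotypes. These spreads between mice are as large as the differences between genes.

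The largest lineage of each mouse used a different gene in nearly every mouse and was in most cases switched. Lineages were ranked by deposited count, and in bulk samples more cells and more RNA per cell cannot be told apart. Junctions are shown for the lineages described below, with the bases outside the V and J segments in capitals.
Anti-CTLA-4 replicate 1, IGHV1-5 and IGHJ1: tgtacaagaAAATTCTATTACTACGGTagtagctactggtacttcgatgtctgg
Anti-CTLA-4 replicate 2, IGHV1-78 and IGHJ3: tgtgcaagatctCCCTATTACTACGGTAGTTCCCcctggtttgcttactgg
Isotype replicate 3, IGHV1-47 and IGHJ3: tgtgcaTTACTACggtttgcttactgg
Isotype replicate 4, IGHV1-81 and IGHJ2: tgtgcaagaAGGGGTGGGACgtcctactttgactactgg
Isotype replicate 5, IGHV1-15 and IGHJ2: tgtacTATGGGGGTTACGACAGGctactgg
Isotype replicate 3, IGHV1-19 and IGHJ4: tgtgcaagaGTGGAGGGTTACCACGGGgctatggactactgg

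The IGHV1-5 lineage of anti-CTLA-4 replicate 1 was the largest of all, with a count of 75937. It held 39.3% of that mouse's counts of the 45 genes and 20.98% of its productive heavy-chain counts. It was almost wholly IgG, 50.7% of its counts were IgG3, and its 88 clonotypes reached 7 mismatches although the most counted sequence had 0. The same rearrangement was found in 4 other mice, where its highest count was 1734, in anti-CTLA-4 replicate 2. The IGHV1-78 lineage of anti-CTLA-4 replicate 2 (count 33356) was 78.9% IgG1, with a further count of 5539 in IgE.

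In isotype replicate 3 the IGHV1-47 lineage (count 33515) was 77.8% IgE and otherwise mostly IgG. The same rearrangement had a count of 6467 in isotype replicate 4, the neighbour with which that library shared most. The IGHV1-81 lineage of isotype replicate 4 (count 33633) was IgA and its most counted sequence had 10 mismatches, the most among the 10 leading lineages. In isotype replicates 1 and 2 the leading lineages were IgA with the joint call IGHV1-62-2 or IGHV1-71 (counts 15714 and 9947), with different junctions and J genes. Leading lineages with counts between 6160 and 10337 were found in the other 4 mice. They used IGHV1-15 in isotype replicate 5 (6160), IGHV1-18 in anti-CTLA-4 replicate 3 (7614), IGHV1-39 in anti-CTLA-4 replicate 4 (10337) and IGHV1-55 in anti-CTLA-4 replicate 5 (10205).

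**Figure D5:**
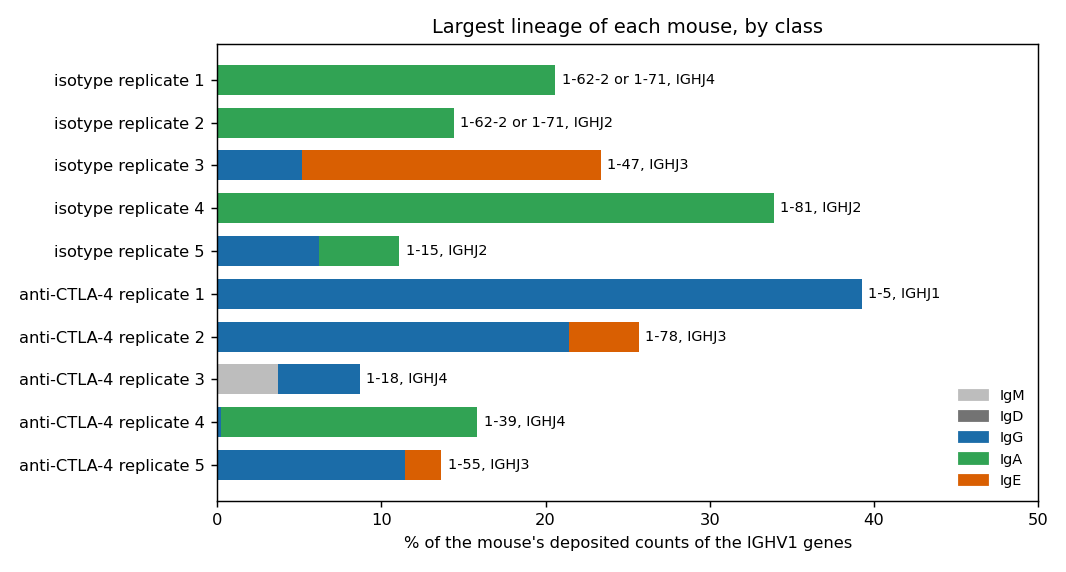
Largest lineage of each mouse as a percent of that mouse's deposited counts of the 45 genes, coloured by class and labelled with V and J gene. The IGHV1-5 lineage of anti-CTLA-4 replicate 1 reaches 39.3%, and IgM makes up a visible part in anti-CTLA-4 replicate 3.

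Within IgG, the largest lineage held 24.5%, 35.4%, 28.5%, 35.7% and 47.5% of the IgG counts of these genes in isotype replicates 1 to 5, and 48.4%, 52.4%, 14.1%, 19.0% and 33.4% in anti-CTLA-4 replicates 1 to 5. The groups overlapped (means 34.3% ± 8.75 and 33.5% ± 17.1, exact permutation p = 0.929). The 45 genes together held 36.2% ± 20.9 of IgG counts with isotype and 39.6% ± 14.2 with the CTLA-4 antibody (exact p = 0.778, adjusted p = 0.929). The V genes of the leading IgG lineages were IGHV1-74, IGHV1-5, IGHV1-19, IGHV1-19 and IGHV1-15 in isotype replicates 1 to 5 and IGHV1-5, IGHV1-78, IGHV1-53, IGHV1-66 and IGHV1-55 in anti-CTLA-4 replicates 1 to 5. The IGHV1-19 lineage leading in isotype replicates 3 and 4 was 1 rearrangement, the last one shown above. The IGHV1-5 lineages of isotype replicate 2 and anti-CTLA-4 replicate 1 had different junctions.

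In IgA the leading lineages used IGHV1-53 in isotype replicate 3 (count 23867, 8 mismatches in its most counted sequence), IGHV1-15 in anti-CTLA-4 replicate 2 (22670) and IGHV1-39 in anti-CTLA-4 replicates 4 and 5 (10180 and 5232). The IGHV1-15 lineage had 48 of the 102 IgA clonotypes of that gene and up to 11 mismatches. The 2 IGHV1-39 lineages had different junctions, both joined to IGHJ4. The smallest leading IgA lineage was that of IGHV1-69 in anti-CTLA-4 replicate 1 (365).

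IgE clonotypes of these genes came from few lineages. IGHV1-19 had 27 IgE clonotypes in 4 mice, IGHV1-55 had 17 in 4, IGHV1-47 had 13 in 3 and IGHV1-18 had 8 in 3, and these were the genes seen in IgE in at least 3 mice. The 132 IgE clonotypes formed 49 lineages. IGHV1-47 held 40.5% of all IgE counts in isotype replicate 3 and 30.6% in isotype replicate 4 through its leading lineage, and IGHV1-78 held 22.8% in anti-CTLA-4 replicate 2. In each of these 3 mice the leading IgE lineage was also found in IgG, as was the IGHV1-55 lineage that led IgE in anti-CTLA-4 replicate 5 (14.4% of IgE counts). The IGHV1-47 lineages of isotype replicates 3 and 4 hold the same rearrangement, so these 2 mice are not separate instances. In isotype replicate 4, 7 of 12 IgE clonotypes had more counts in another mouse. Anti-CTLA-4 replicate 4 had no IgE clonotype, and in isotype replicate 5 none of 5 IgE clonotypes used these genes.

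Junction length differed little. The mean junction was 41.6 ± 0.126 nucleotides in IgM, 41.4 ± 2.04 in IgG and 40.1 ± 2.25 in IgA (SD, n = 10). IGHJ2 was the most used J gene in each class, with 33.0% ± 0.790 of IgM, 34.7% ± 9.07 of IgG and 41.03% ± 20.1 of IgA clonotypes. None of these differences was tested.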

How the data were processed

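Bulk B cell receptor libraries came from deep cervical lymph node RNA of 10 mice, made with a commercial kit with molecular identifiers, per the labels' protocols. For every mouse the authors deposited an AIRR-format table with V, D, J and constant gene calls, germline alignments and, for each sequence, a whole-number count. The deposited counts may be reads or molecules, which nothing given here states. The aligner and the germline set are not given in the sources used. Precision was taken from the spread between mice or, in class comparisons, of the class differences within mice. The p-values set a difference against that spread, which edgeR estimates with information from all V calls tested.

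Sequences without a class (0.178%) were left out. Mismatches were counted over at least 200 aligned V nucleotides, without gaps. Clonotypes were joined into lineages by single linkage at 90% junction identity.

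V gene use was tested on clonotype numbers over all heavy-chain V calls with edgeR 4.0.16 (quasi-likelihood, TMM, filterByExpr), and with DESeq2 1.42.0 as an alternative. Values per mouse were compared by exact permutation (252 reassignments, smallest p 0.00794) or, within mice, by exact sign-flip permutation (1024 assignments, smallest p 0.00195). The threshold was a Benjamini-Hochberg adjusted p of 0.05. On simulated data with known 4-fold changes, the treatment test over all classes recovered all but also called a few unchanged V calls. The IgG against IgM test recovered 10 of 14 and also called 2 unchanged V calls. The IgA against IgM test recovered 7 of 14 and also called 3 unchanged V calls, so some calls in the class comparisons may be false. The test of the difference between treatments recovered none. Changes as small as those seen between treatments over all classes (log2 fold changes of -0.316 to 0.312) were not simulated, so power for them is not known. Alternatives covered the test, scaling, filter, unit counted, low counts, shared rearrangements, joint calls, lineage identity, strain variants, a replicate block and each mouse left out. Leaving out linked mismatch sets (10 or more substitutions) was chosen after seeing the data. Genes named are those past the threshold, up to 3 with the smallest p per direction otherwise, the most used genes overall and per position range, the lowest and highest positions, V genes of the largest lineages and genes in IgE in at least 3 mice. Genes named beside them for sequence or place were chosen after their values were seen. Members and lists were chosen with earlier results of these data known. The RefSeq table (GRCm38.p6) served for names and gene order.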

Additional observations from a re-analysis of the deposited data

Results flagged for a closer look

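Within a group of 5 mice, 1 mouse stood far from the other 4 in 19 of 99 groups of values examined. Most were genes of the switched classes with few clonotypes, many of them at 0 in the other mice. The rule used flags about 1 in 20 groups of normally distributed values, but it always flags a group with 4 mice at 0. The genes were also chosen by the tests on these data, so 19 of 99 cannot be set against chance. IGHV1-7 made up 13.79% of IgA clonotypes in isotype replicate 5 and 14.29% in anti-CTLA-4 replicate 1. IGHV1-4 made up 1.724% of IgA in isotype replicate 5 and 3.302% in anti-CTLA-4 replicate 5, and IGHV1-5 4.31% in isotype replicate 5. In isotype replicate 4 IGHV1-69 stood at 0.5319% of IgA and IGHV1-19 at 1.064%, and in anti-CTLA-4 replicate 5 IGHV1-19 stood at 1.415%. In isotype replicate 3 IGHV1-52 reached 3.535% and IGHV1-54 0.5051% of IgA, and in isotype replicate 2 IGHV1-61 reached 1.818%. In IgG, IGHV1-15 reached 3.774% in isotype replicate 5, IGHV1-2 0.2151% in isotype replicate 2, IGHV1-34 1.227% and IGHV1-47 1.595% in anti-CTLA-4 replicate 2, and IGHV1-7 1.538% in anti-CTLA-4 replicate 4. IGHV1-55 made up 3.06% of all heavy-chain clonotypes in anti-CTLA-4 replicate 1. The mean position in IgA was 28.48 in isotype replicate 5, and IgG clonotypes of the other heavy-chain V genes had 1.5 mismatches per 100 nucleotides in that mouse. The causes were not tested.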

How the results depend on the processing

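Of 180 results other than single genes under alternatives that keep every mouse, 160 kept their direction and their side of the threshold. Of 282 single-gene results, 239 did. The cause of the changes was not tested. Genes called in IgG against IgM (2) became 4 without TMM factors, 16 with deposited counts, 0 with a count of at least 2 and 1 without rearrangements with more counts in another mouse (0 to 5 with a mouse left out). In IgA against IgM (11) they became 5 without TMM factors, 21 with deposited counts and 2 with a count of at least 2. Between treatments 0 to 1 were called with a mouse left out. With deposited counts the log2 fold change turned to 1.102 for IGHV1-85 and 0.9788 for IGHV1-63 between treatments, to -2.438 for IGHV1-34, -4.518 for IGHV1-47 and -2.999 for IGHV1-7 in IgG, and to -7.01 for IGHV1-4 in IgA. Deposited counts also turned the IgG share of positions 21 to 40 to -0.7471, the IgA share to -0.8783, the IgA mean position to 0.927 and the IgA share of positions 1 to 20 to -5.076, each against IgM. With lineages the IgG share against IgM was -4.32 and passed the threshold, and the signs turned for IgG mean position (0.08628), IgG positions 1 to 20 (-1.559), IGHV1-47 in IgG (-0.1881), mismatches between treatments in IgM (-0.005559) and IgG (0.03927), and IgG mismatches against other V genes (0.0342). With a count of at least 2 the IgM treatment difference turned in share (-0.5896) and mean position (0.3688). With lineages IGHV1-2 was no longer called in IgG against IgM (adjusted p = 0.0630, edgeR), whereas IGHV1-54 was (adjusted p = 0.0183, edgeR). With constant genes in place of classes IGHV1-55 in IgG turned to -0.2605. Without rearrangements with more counts in another mouse the largest-lineage difference turned to 3.338.

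With each mouse left out in turn, treatment differences ran from -0.2451 to 0.05724 (IgM mean position), -0.004666 to 0.005067 (IgM mismatches), 9.484 to 13.88 (IgG share), -0.07563 to 0.03963 (IgG mismatches), -0.3909 to -0.1665 (IgA mismatches), -2.181 to 10.67 (share of IgG counts), -5.602 to 3.988 (largest lineage), -0.0008 to 0.7406 (IGHV1-55 in IgG) and -5.593 to 0.3766 (IGHV1-2, difference between treatments of IgG against IgM). IgG mismatches against other V genes ran from -0.1158 to 0.01294. Differences from IgM ran from -0.1837 to 2.038 (IgG, positions 21 to 40), -2.681 to 0.4179 (IgG, positions 41 to 60) and -9.771 to -5.128 (IgA, positions 41 to 60). Samples with the same replicate number deviated together with correlations of 0.0043 to 0.22, so the numbers were not shown to pair the mice, and a replicate block called 0 genes between treatments, as without it. Lineages could not be fitted between treatments in IgG, where fewer than 3 V calls passed the filter. The few clonotypes of IgA and IgE limit what can be seen in single genes.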
